A study of Mus musculus with 8 samples.

Results

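The MitoPositive effect in the spleen on d7 was set against the same effect in culture on d0, in mouse CD8+ T cells. T cells of 3 donor mice had been activated and grown with bone marrow stromal cells (BMSCs) whose mitochondria carry the red fluorescent protein dsRed. Sorting then split the T cells into those that showed dsRed, called MitoPositive, and those that did not, called MitoNegative. One portion of each arm was sequenced at once (d0), and another was injected into B6 mice bearing B16KVP tumors and recovered from the spleen 7 days later (d7). The groups were therefore MitoPositive spleen, MitoNegative spleen, MitoPositive culture and MitoNegative culture, with 3 samples each, 1 per donor. All 4 groups had been activated and had shared a culture with the stromal cells, and both arms at d7 came from tumor-bearing hosts. At d7 the arm names a cell's dsRed state at the time of transfer. The label dsRed was not followed in the RNA. In each donor the MitoPositive and MitoNegative cells had gone into different recipient mice, so recipient and arm cannot be told apart at d7.

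The comparison used 12 of 18 hashtagged samples and 14335 of 16404 assigned cells, out of 18092 barcodes. A hashtag is an antibody coupled to a short DNA barcode that marks every cell of 1 sample before samples are pooled. Cells with at least 500 genes, less than 15% mitochondrial UMIs (unique molecular identifiers, 1 per captured RNA), at least 10 UMIs of the leading hashtag and at least 3 times as many as of the next were kept. UMIs were then summed per sample. The difference of log2 levels, MitoPositive minus MitoNegative, is called the arm difference below. The arm difference at d7 minus the arm difference at d0 is called the shift, so a shift is negative when MitoPositive cells stood lower, relative to their MitoNegative partners, in the spleen than in culture. Tumor samples were not used.

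T cells can receive whole mitochondria from stromal cells through thin tubes, called nanotubes, between the cells. After activation, CD8+ T cells divide quickly, and the genes for DNA replication, histones and mitosis follow that division through factors of the E2F family and the DREAM and MuvB complexes. As cells return to rest they regain Klf2, a factor that keeps S1pr1 on, a receptor that lets T cells circulate between blood, spleen and lymph nodes. Memory-forming cells keep factors such as Bach2, Foxp1 and Tcf7, while effector cells express granzymes and chemokines.

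The 6 hashtag barcodes are shown because every arm assignment rests on them. At d0 all 6 were used in 1 library, and at d7 the 3 libraries, 1 per donor, used H1 for MitoPositive and H2 for MitoNegative spleen cells.
H1: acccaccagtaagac
H2: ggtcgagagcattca
H3: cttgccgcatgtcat
H4: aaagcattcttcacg
H5: ctttgtctttgtgag
H6: tatgctgccacggta
The labels conflict on the d0 map. The series design, the readme and the hashtag list give H1, H3 and H5 to MitoPositive and H2, H4 and H6 to MitoNegative cells, and the extraction protocol gives H1 to H3 and H4 to H6. The first map was used. With the second map 32 genes were called for the shift in place of 1993, 31 of them among the 1993, so each result below stands on the first map.

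Samples held 50 to 3429 cells and 325046 to 26620208 UMIs. The spleen samples held 1148, 2303 and 50 MitoPositive cells and 3429, 1237 and 558 MitoNegative cells of donors 1 to 3, and the culture samples held 937 to 1025 MitoPositive and 823 to 951 MitoNegative cells. The MitoPositive spleen sample of donor 3 was the smallest, and 1 UMI there was worth 2.95 CPM (UMIs scaled for library size, as edgeR's cpm gives them), against 0.0407 to 0.231 CPM in the other samples. Median UMIs per cell were 5288 to 6194 in MitoPositive and 5791 to 7225 in MitoNegative spleen samples, and 6928 to 8599 in MitoPositive and 5875 to 7392 in MitoNegative culture samples, so the order of the arms in depth was opposite at the 2 times. Libraries shared 1 to 9 barcodes, at most 0.172% of the smaller library. Of 16 T cell identity genes, such as those for CD3 and CD8, edgeR called none for a shift, with 5 at an unadjusted p under 0.05 and 1 called by DESeq2, and 3 called with the replicate block at both days. Without donor 1, its culture pair or the spleen pair of donor 2, 1 of them was called. A Cd3 UMI was found in 93.4% to 99.1% of the cells of each sample.

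The arm difference turned round between culture and spleen for genes of cell division, which were higher in MitoPositive cells at d0 and lower at d7. Genes for lymphoid homing and for stem-like and memory cells shifted upward, among them Klf2, Klf3, Bach2 and Bcl2. Nuclear genes for oxidative phosphorylation shifted downward by a smaller amount. None of the 13 genes of the mitochondrial genome was called by edgeR, although mt-Cytb passed under 7 of the alternative settings given below. Of 12330 genes tested, 1993 (16.2%) had a shift at an adjusted p under 0.05 by edgeR's quasi-likelihood test, 800 (6.49%) upward and 1193 (9.68%) downward. In the spleen itself 1682 genes (13.6%) differed between arms, 708 higher (5.74%) and 974 lower (7.9%) in MitoPositive cells. In culture 730 genes (5.92%) differed, 492 higher (3.99%) and 238 lower (1.93%) in MitoPositive cells.

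A large share of the culture calls had the opposite sign in the spleen. Of the 492 genes higher in MitoPositive culture, 251 were lower in MitoPositive spleen cells, which is 51% of the culture list and 25.8% of the 974 spleen genes. Of the 238 genes lower in MitoPositive culture, 64 were higher in the spleen, 26.9% of the culture list and 9.04% of the 708 spleen genes. Over all genes tested, 5.74% were higher and 7.9% lower in MitoPositive spleen cells. At both times 17 genes were higher in MitoPositive cells (3.46% of the 492) and 10 were lower (4.2% of the 238). Among the 800 upward shifts, 406 were genes called at d7 alone and 105 at d0 alone, and among the 1193 downward shifts these were 544 and 130. Called at neither time were 223 of the upward and 265 of the downward shifts. Over 8904 genes with a mean of at least 10 CPM in a group, the arm differences at d7 and d0 correlated across genes at a Pearson r of -0.41, and at -0.33 over the 8817 of them outside the lists of S phase, G2/M and histone genes. The 2 differences come from separate samples, and genes are not independent replicates.

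**Figure D1:**
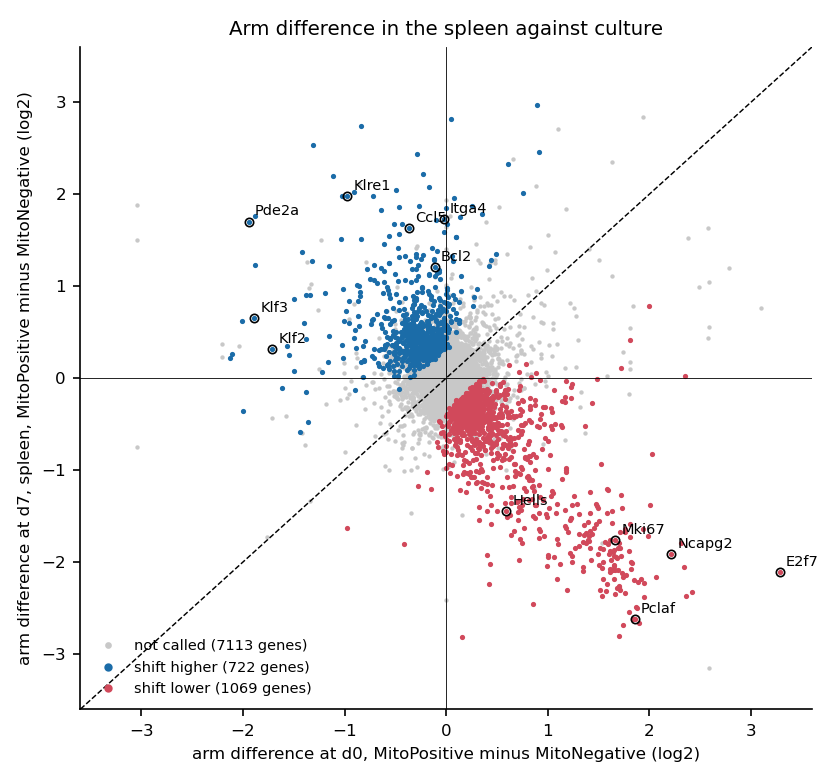
Arm difference at d7 in the spleen (vertical, log2) against the arm difference at d0 in culture (horizontal, log2) for 8904 genes with a mean of at least 10 CPM in a group, of which 5 lie outside the axes; 722 genes with an upward shift are blue and 1069 with a downward shift red. Division genes such as Pclaf and Mki67 lie at the lower right and Pde2a and Klre1 at the upper left, while Itga4, Bcl2 and Ccl5 lie near 0 at d0 and above 0 at d7.

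How many genes were called depended on donors. Without both days of donor 2 the count for the shift was 652, and without donor 1 it was 1063. Leaving out the spleen pair of donor 1 gave 879, the culture pair of donor 2 gave 869 and the culture pair of donor 3 gave 1204. The spleen count was 582 without donor 1, 533 without donor 2, 322 without the spleen pair of donor 1 and 925 without the culture pair of donor 2. The culture count was most sensitive, at 39 without donor 2, 286 without donor 3, 419 without the culture pair of donor 1, 11 without that of donor 2 and 244 without that of donor 3. Without any 1 donor or pair, 1987 to 1993 of the 1993 genes could be tested, and all of those kept their direction. In the full data 1830 of the 1993 had the fitted sign in each of the 3 donors. By donor the counts were 1992, 1993 and 1831. The 1993 genes were called from these same samples, so their signs were largely set by that choice. These sign counts are therefore no independent check. Without the small MitoPositive sample of donor 3 and its partner, 2257 genes were called, 1903 of them among the 1993. Of 96 called genes named below, 56 stayed called without each donor and each pair in turn, and the other 40 did not pass in 1 to 8 of those 9 settings. With these genes 1 or more of the settings are named below.

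Genes of the S phase, in which DNA is copied, were the clearest group. Of 36 tested, 35 shifted downward and none upward, with a median shift of -2.50, against 0.03 over all genes. The summed level of the list was 888, 1009 and 673 CPM in MitoPositive and 3473, 2275 and 1632 CPM in MitoNegative spleen samples of donors 1 to 3. In culture it was 723, 822 and 954 CPM in MitoPositive and 423, 501 and 532 CPM in MitoNegative samples. The arms did not overlap at either time, and MitoPositive samples were the lower ones in the spleen and the higher ones in culture. In the spleen 35 of the 36 genes were lower in MitoPositive cells, and in culture 21 were higher and none lower. In sums over cells, fewer dividing cells and less of each RNA per cell cannot be told apart. Cells of at least 3000 UMIs were also thinned to 3000 each. The share of these with over 2 UMIs from the S phase and G2/M lists without Smc4 was not tested. It was 47.6%, 41.7% and 41.7% in MitoPositive and 66.0%, 56.2% and 53.2% in MitoNegative spleen samples. In culture it was 34.0%, 30.7% and 38.8% in MitoPositive and 32.5%, 30.8% and 31.4% in MitoNegative samples. With Smc4 counted too, the culture share was 78.4%, 73.4% and 70.0% in MitoPositive and 87.6%, 83.1% and 78.2% in MitoNegative samples. MitoPositive culture was then lower in each donor, unlike in the summed levels. In the spleen the share with Smc4 was 60.1%, 53.6% and 47.9% in MitoPositive and 72.0%, 64.1% and 64.3% in MitoNegative samples.

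Pclaf, a clamp-binding protein of replicating DNA, had 41.5, 56.7 and 56.1 CPM in MitoPositive and 445.9, 235.4 and 187.0 CPM in MitoNegative spleen samples. In culture it had 73.9, 76.8 and 114.1 CPM in MitoPositive and 11.8, 29.4 and 31.9 CPM in MitoNegative samples. Its arm difference was -2.62 ± 0.32 (SE) at d7 and 1.86 ± 0.31 at d0, and its shift was -4.47 ± 0.44 (adjusted p = 3.41e-05). Hells, a chromatin remodeller of dividing cells, had a smaller change in culture, with an arm difference of 0.59 ± 0.11, and one of -1.45 ± 0.10 in the spleen (shift -2.04 ± 0.15, adjusted p = 1.4e-05). Outside the list, E2f7 and E2f8, repressors that are themselves E2F targets, had shifts of -5.39 ± 0.59 and -4.73 ± 0.52. In E2f7 the smallest sample went against the others: MitoPositive spleen samples had 2.11, 3.68 and 11.8 CPM and MitoNegative ones 20.8, 10.5 and 8.76 CPM, where 11.8 CPM rests on a few UMIs. Cdc6, which loads the replicative helicase, was at 3.62, 3.94 and 0 CPM in MitoPositive and 23.2, 15.4 and 10.6 CPM in MitoNegative spleen samples (shift -4.75 ± 0.52). Clspn (-4.10), Mcm10 (-4.38) and, outside the list, Chek1 (-4.40), which act at replication forks and their checkpoint, moved alike. The 1 S phase gene without a call was the licensing factor Cdt1, at -0.23 ± 0.21 (adjusted p = 0.51), named after its value was seen.

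The G2/M list, genes of chromosome condensation and mitosis, gave 37 downward shifts of 38 and a median of -3.39. In the spleen 33 were lower in MitoPositive cells, and in culture 30 were higher and 1 lower. Mki67, the usual marker of dividing cells, had 34.4, 37.0 and 91.6 CPM in MitoPositive and 193.3, 100.1 and 111.1 CPM in MitoNegative spleen samples, against 59.4, 82.3 and 86.2 CPM in MitoPositive and 18.8, 20.3 and 32.8 CPM in MitoNegative culture. The arms of Mki67 did not overlap at either time, and the narrowest gap was in donor 3 in the spleen (shift -3.42 ± 0.38, adjusted p = 5.98e-05). Ncapg2, a condensin subunit outside the list, had 9.2, 11.6 and 8.86 CPM in MitoPositive and 52.7, 30.6 and 29.0 CPM in MitoNegative spleen samples. Its culture values were 16.3, 19.3 and 20.6 CPM in MitoPositive and 3.04, 4.76 and 4.33 CPM in MitoNegative samples, and its shift of -4.13 ± 0.31 (adjusted p = 1.4e-05) stayed called without each donor in turn. Pbk (-4.56), Ccna2 (-4.32) and Bub1b (-3.89), a kinase, a cyclin and a checkpoint protein of mitosis, also shifted downward.

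Donor 3 stood apart in this group. By donor, the median arm difference of the G2/M genes in the spleen was -2.68, -1.38 and 0.18, and the median shift was -4.12, -3.10 and -1.10. The summed level without Smc4 was 595, 698 and 2221 CPM in MitoPositive and 3052, 1723 and 1869 CPM in MitoNegative spleen samples, so only donors 1 and 2 were lower in the MitoPositive arm. In culture the same sum was 1006, 1386 and 1630 CPM in MitoPositive and 396, 468 and 653 CPM in MitoNegative samples. Smc4 was left out of that sum because it alone stood above the rest of the list in MitoNegative culture. It is also the 1 gene of the list whose shift was not called, at 0.37 ± 0.18 (adjusted p = 0.18, passed under 4 alternatives). Smc4 had 219, 211 and 266 CPM in MitoPositive and 284, 209 and 267 CPM in MitoNegative spleen samples, and 871, 772 and 622 CPM in MitoPositive and 1181, 1097 and 950 CPM in MitoNegative culture.

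Replication-dependent histones, which package new DNA, gave 17 downward shifts of 18 tested and a median of -2.89. Their summed level was 389, 518 and 724 CPM in MitoPositive and 2633, 1532 and 1313 CPM in MitoNegative spleen samples, and 729, 701 and 896 CPM in MitoPositive and 264, 325 and 406 CPM in MitoNegative culture. The arms were apart at both times and in opposite order. Hist1h3c shifted by -4.34 ± 0.43 and the linker histone Hist1h1e by -1.82 ± 0.14. Hist1h2ac, at -1.31 ± 0.43, did not pass (adjusted p = 0.054, passed under 4 alternatives). Hist1h2a genes are near-identical copies, and reads of one may have been counted for another. Most histone RNA has no poly(A) tail, so poly(dT) capture sees only part of it.

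**Figure D2:**
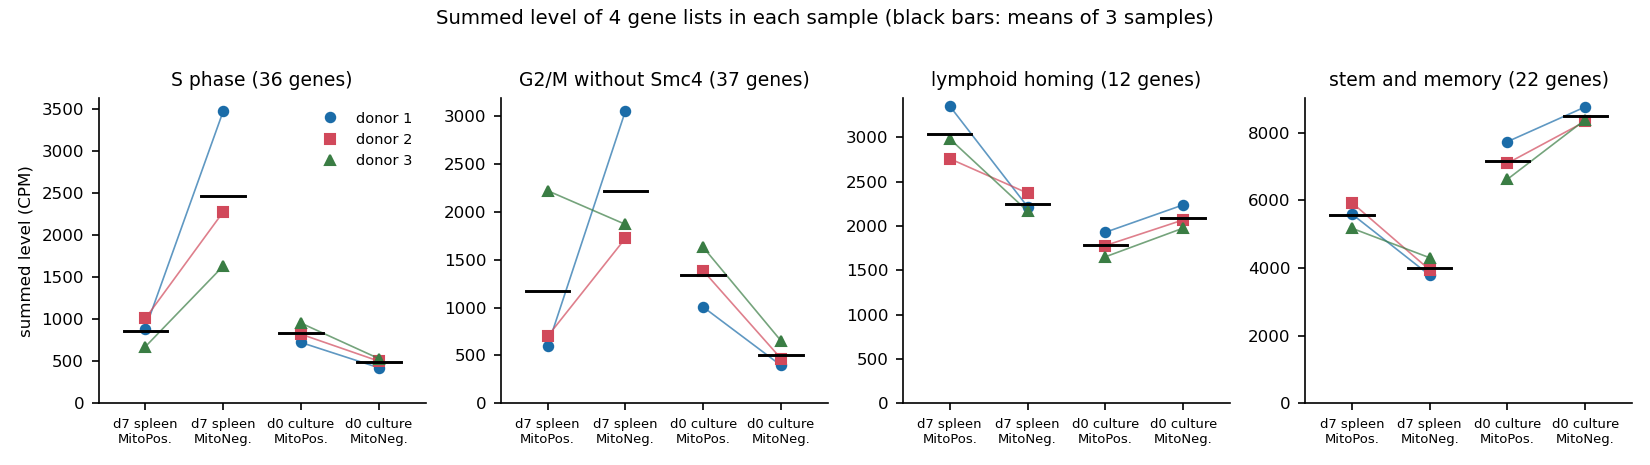
Summed level (CPM) of 4 gene lists in each of the 12 samples, by time and arm, with MitoPositive left of MitoNegative; points are donors. S phase genes lie at 673 to 1009 CPM in MitoPositive spleen samples and 1632 to 3473 CPM in MitoNegative ones, and at 723 to 954 and 423 to 532 CPM in the same order in culture.

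The promoters of 3 of these genes are shown with the motifs that cell cycle genes share. Each line holds the 250 bases before the RefSeq transcription start (GRCm38.p6), 5′ to 3′ on the gene's strand, with 3 motifs in capitals where present on either strand. These are the CHR (TTTGAA), the CCAAT box (CCAAT) and the E2F site (TTTCCCGC, TTTGGCGC, TTTGCCGC or TTTCGCGC). The windows are chr9:65890073-65890322 on the plus strand for Pclaf, chr7:135716380-135716629 on the minus strand for Mki67 and chr12:116405186-116405435 on the plus strand for Ncapg2.
Pclaf: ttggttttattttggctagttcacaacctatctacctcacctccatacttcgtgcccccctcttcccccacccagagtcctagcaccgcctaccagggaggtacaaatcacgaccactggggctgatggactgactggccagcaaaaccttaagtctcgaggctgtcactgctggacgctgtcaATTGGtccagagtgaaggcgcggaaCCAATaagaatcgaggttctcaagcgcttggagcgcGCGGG
Mki67: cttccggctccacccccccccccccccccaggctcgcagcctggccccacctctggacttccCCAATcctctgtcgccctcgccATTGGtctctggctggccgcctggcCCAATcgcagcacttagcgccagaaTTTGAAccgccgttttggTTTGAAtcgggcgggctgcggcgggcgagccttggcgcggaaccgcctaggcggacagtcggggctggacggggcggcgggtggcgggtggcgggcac
Ncapg2: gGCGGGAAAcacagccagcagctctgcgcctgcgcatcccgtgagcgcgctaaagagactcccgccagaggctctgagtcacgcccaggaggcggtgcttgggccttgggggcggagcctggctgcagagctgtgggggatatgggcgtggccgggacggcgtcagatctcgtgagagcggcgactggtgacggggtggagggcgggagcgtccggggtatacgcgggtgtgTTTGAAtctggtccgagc
In the last 5 bases of the Pclaf window an E2F site begins that runs on past the start. Mki67 holds 2 CHR and 3 CCAAT matches. Ncapg2 holds a CHR match starting 18 bases before the start and an E2F match at the far end. Another E2F match of Ncapg2 begins right after the bases shown. The first 20 bases past the start matched a GENCODE transcript for Pclaf and Ncapg2, but no match was found for Mki67. Over windows reaching 50 bases past the start, the CHR letters stood in 25 of 33 G2/M promoters (75.8%), against 18.1% of all 27025 promoters in the RefSeq table. CCAAT stood in 78.8% of the G2/M promoters and in 16 of 16 histone promoters, against 37.9% of all. E2F letters stood in 11 of 30 S phase promoters (36.7%), against 2.32% of all. Of the 1193 genes with a downward shift, 978 had a promoter in the table, and 20% of those held the CHR, 50% the CCAAT box and 10% an E2F site. Over the 9520 promoters of all genes tested these shares were 12.8%, 39.5% and 4.37%, and over the 602 of genes with an upward shift 11.1%, 35.9% and 1.83%. A match of letters describes the window and does not show that a factor binds there.

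Nuclear genes for oxidative phosphorylation, the chain that makes ATP in mitochondria, shifted downward together. Of 71 tested, 42 were lower and none higher, beside 9.68% and 6.49% of all genes, with a median shift of -0.43. The downward count was 7 without donor 2 and 15 without donor 1, and 11 without the spleen pair of donor 1. It was 15 and 18 without the culture pairs of donors 2 and 3, and 7 with no replicate block. In the spleen 36 were lower in MitoPositive cells, and in culture 2 were higher and none lower. By complex, 22 of 37 genes of complex I, 6 of 10 of complex III with cytochrome c, 6 of 10 of complex IV and 8 of 14 of complex V were called lower, with medians of -0.42, -0.43, -0.51 and -0.43. Cox5b, a subunit of complex IV, had 402.2, 455.7 and 366.3 CPM in MitoPositive and 646.1, 584.6 and 433.7 CPM in MitoNegative spleen samples, against 255.6, 276.3 and 311.8 CPM in MitoPositive and 203.0, 229.9 and 228.6 CPM in MitoNegative culture. Each donor's MitoPositive sample was the lower in the spleen and the higher in culture, while the spleen arms overlapped across donors (shift -0.80 ± 0.14, adjusted p = 0.00163). Ndufa4 (-0.88 ± 0.15), Cox5a (-0.84 ± 0.16) and Atp5c1 (-0.67 ± 0.13) shifted likewise, although without donor 2 neither Cox5a (adjusted p = 0.057) nor Atp5c1 (adjusted p = 0.072) passed.

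Of the 13 genes that mitochondria encode themselves, edgeR called none, with 3 at an unadjusted p under 0.05. DESeq2 called 2, mt-Nd2 and mt-Nd5, and the replicate block at both days called 1, mt-Cytb (adjusted p = 0.033). The median shift was 0.03, and the largest values were -0.33 ± 0.11 for mt-Cytb (adjusted p = 0.0657, and 0.02 to 0.78 over the alternatives, of which it passed 7) and 0.26 ± 0.10 for mt-Nd2 (adjusted p = 0.106). Their summed level was 24313, 23809 and 17528 CPM in MitoPositive and 22021, 22684 and 18653 CPM in MitoNegative spleen samples, and 25738, 26309 and 26516 CPM in MitoPositive and 24941, 22970 and 24304 CPM in MitoNegative culture. The 15% limit on mitochondrial UMIs removed 36, 44 and 38 MitoPositive and 15, 10 and 15 MitoNegative culture cells of donors 1 to 3. In the spleen it removed 7, 6 and 0 MitoPositive and 22, 2 and 2 MitoNegative cells. Without that limit mt-Cytb passed edgeR's test (-0.39, adjusted p = 0.027). RNAs of the mitochondrial genome do not show whether a mitochondrion came from a donor stromal cell. Of 27 genes for mitochondrial import and biogenesis, 1 was higher and 3 were lower, beside 6.49% and 9.68% of all genes. They were Timm9 (0.50) upward and Tomm7 (-0.43), Tomm6 (-0.48) and Timm17a (-0.47) downward. None of these 4 stayed called without donor 1 (adjusted p = 0.098 to 0.24), and no gene of the list was called without the spleen pair of donor 1 or the culture pair of donor 2 or 3.

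Other metabolic lists held fewer called genes. Over all genes tested, 6.49% shifted upward and 9.68% downward. In glycolysis 7 of 20 were lower and 1 higher, with a median of -0.51, and 3 or 4 were lower without donor 1, the spleen pair of donor 1 or the culture pair of donor 2 or 3. Gapdh had 433.1, 535.7 and 410.6 CPM in MitoPositive and 799.8, 675.2 and 506.8 CPM in MitoNegative spleen samples, and 666.6, 710.5 and 785.0 CPM in MitoPositive and 505.1, 561.4 and 559.6 CPM in MitoNegative culture (shift -0.94 ± 0.15, adjusted p = 0.000929). Pgk1 (-0.98) and Eno1 (-0.85) shifted with it, while Pdk1, a kinase that keeps pyruvate out of mitochondria, went the other way (0.95 ± 0.16), but did not pass without donor 2 (adjusted p = 0.055). The tricarboxylic acid cycle had 5 of 24 lower, with Idh3a at -0.72 and Sdhb at -0.69, and without donor 1 neither passed (adjusted p = 0.10 and 0.064). Mdh1 and Mdh2 did not pass there either (adjusted p = 0.11 and 0.17). The count of that list was 0 without donor 1, without the spleen pair of donor 1 and with no replicate block, 3 without donor 2, donor 3 or the culture pair of donor 2, and 2 without the culture pair of donor 3. Cholesterol synthesis had 5 of 20 lower, among them Cyp51 at -1.28. None of that list was called without the culture pair of donor 2, 1 was without donor 3, the spleen pair of donor 1 or the culture pair of donor 3, 2 were without donor 1 and 3 without donor 2. Without the culture pair of donor 2 the adjusted p was 0.051 for Cyp51, 0.062 for Fdps, 0.069 for Pmvk and 0.076 for Idi1. The shift of Idi1 was -1.44 in all samples, -0.69 without donor 1 and -2.30 without donor 2, and that of Fdps was -0.86 and without donor 2 -1.32. In the integrated stress response 4 of 14 were lower, among them Phgdh (-1.06), Psat1 (-1.45) and Mthfd2 (-0.83), enzymes of serine and folate metabolism, of which Mthfd2 did not pass without the spleen pair of donor 1 (adjusted p = 0.080). The fourth, Ddit4, did not pass without donor 2 (adjusted p = 0.24). Of 32 ribosomal protein genes, 2 were higher, Rps27 (0.59) and Rps14 (0.36), and without donor 2 neither passed (adjusted p = 0.12 and 0.37). That upward count was near the share over all genes.

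**Figure D3:**
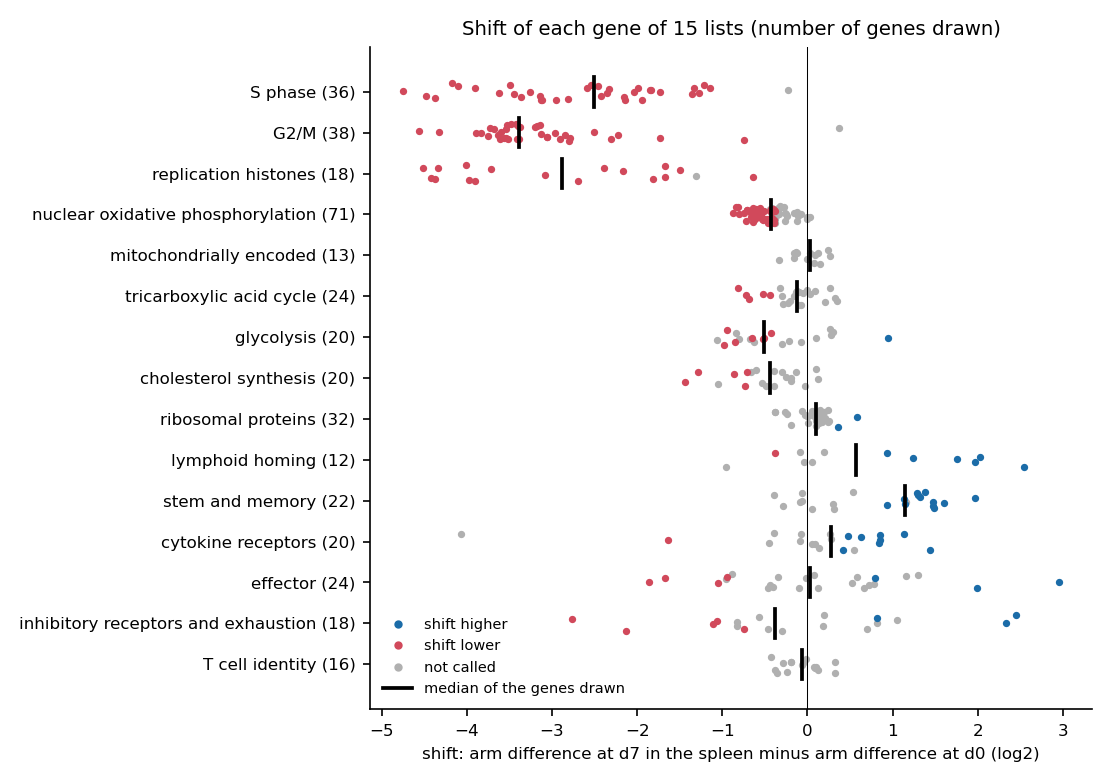
Shift (log2, arm difference at d7 in the spleen minus arm difference at d0) of each gene in 15 lists, with the median as a black bar; Klrg1 and Ccl3 of the effector list, at or near 0 in culture, are not drawn. Nearly all genes of the S phase, G2/M and histone lists lie left of 0 in red, with medians of -2.50, -3.39 and -2.89, and the stem and memory list has its median at 1.14.

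Lymphoid homing genes shifted upward. Of 12 tested, 6 were higher, among them Klf2, Klf3, S1pr1 and Itga4, and 1 was lower (Itgb7, -0.38). Over all genes these shares were 6.49% upward and 9.68% downward. The median shift of the list was 0.56. That median was 0.37 without donor 2 and 1.11 without donor 3, and 1.10 without the culture pair of donor 3. Klf2 had 789.7, 665.7 and 711.9 CPM in MitoPositive and 593.1, 625.5 and 509.5 CPM in MitoNegative spleen samples, an arm difference of 0.32 ± 0.26 that did not pass (adjusted p = 0.478). In culture it had 84.6, 45.8 and 28.0 CPM in MitoPositive and 208.7, 170.7 and 132.2 CPM in MitoNegative samples (-1.71 ± 0.28, adjusted p = 0.00431). The shift of Klf2 was 2.03 ± 0.38 (adjusted p = 0.00263), and its culture arms were further apart than its spleen arms. Klf3, a related repressor, had 123.5, 113.2 and 177.2 CPM in MitoPositive and 75.5, 81.4 and 94.1 CPM in MitoNegative spleen samples, against 31.3, 18.1 and 12.5 CPM in MitoPositive and 91.3, 68.2 and 64.2 CPM in MitoNegative culture (shift 2.54 ± 0.32, adjusted p = 0.000136). S1pr1, the receptor that lets T cells leave lymphoid tissue, was called in culture alone (-1.02 ± 0.20, shift 1.24 ± 0.29). Its shift did not pass without donor 2 (adjusted p = 0.094), the spleen pair of donor 1 (0.059) or the culture pair of donor 2 (0.073). Ccr7, at 0.94, did not pass without donor 2 (adjusted p = 0.30), and Itgb7 did not without donor 1, donor 2 or most single pairs (adjusted p = 0.058 to 0.40).

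Itga4, the alpha 4 integrin, was called in the spleen alone. It had 659.4, 492.3 and 617.3 CPM in MitoPositive and 148.7, 260.7 and 132.3 CPM in MitoNegative spleen samples, against 356.0, 337.7 and 281.6 CPM in MitoPositive and 355.2, 345.7 and 291.2 CPM in MitoNegative culture. All 3 donors had more Itga4 in the MitoPositive spleen sample, and in culture the arms were level (shift 1.75 ± 0.27, adjusted p = 0.000654).

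Of 22 stem and memory genes, 12 were higher and none lower, beside 6.49% and 9.68% of all genes, with a median shift of 1.14. Without donor 2, 7 were higher, and without the culture pair of donor 2, 8 were. In the spleen 9 were higher and 1 lower in MitoPositive cells, and in culture 1 was higher and 3 lower. By donor, the median shift was 0.74, 1.24 and 0.35. The median arm difference in the spleen was 0.49, 0.38 and -0.14, so donor 3 did not share the direction there. The summed level was 5595, 5933 and 5175 CPM in MitoPositive and 3786, 3944 and 4302 CPM in MitoNegative spleen samples, and 7734, 7097 and 6623 CPM in MitoPositive and 8762, 8332 and 8383 CPM in MitoNegative culture. The list shares members such as Ccr7 and Il7r with the homing list. Bcl2, which protects from cell death, had 544.5, 622.2 and 620.3 CPM in MitoPositive and 184.4, 307.2 and 311.9 CPM in MitoNegative spleen samples. In culture Bcl2 had 269.8, 253.6 and 277.6 CPM in MitoPositive and 272.4, 274.7 and 318.9 CPM in MitoNegative samples (shift 1.32 ± 0.15, adjusted p = 7.52e-05). Bach2, a repressor that restrains effector genes, had 174.3, 243.6 and 233.3 CPM in MitoPositive and 65.6, 94.8 and 162.1 CPM in MitoNegative spleen samples. Its culture levels were 631.2, 598.5 and 505.8 CPM in MitoPositive and 724.0, 700.5 and 710.7 CPM in MitoNegative samples (shift 1.48 ± 0.18). Satb1 (1.47 ± 0.19) and Foxp1 (1.14 ± 0.16), chromatin and transcription factors of resting T cells, shifted alike. Tcf7, the factor most used to define stem-like T cells, did not pass at 0.53 ± 0.19 (adjusted p = 0.0695). It passed under 9 alternatives, among them DESeq2 (adjusted p = 0.049), the replicate block at both days (0.015) and Trbv14 cells (0.00072), with a range up to 0.94 over all of them. Il7r did not pass at 0.05 (adjusted p = 0.88).

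**Figure D4:**
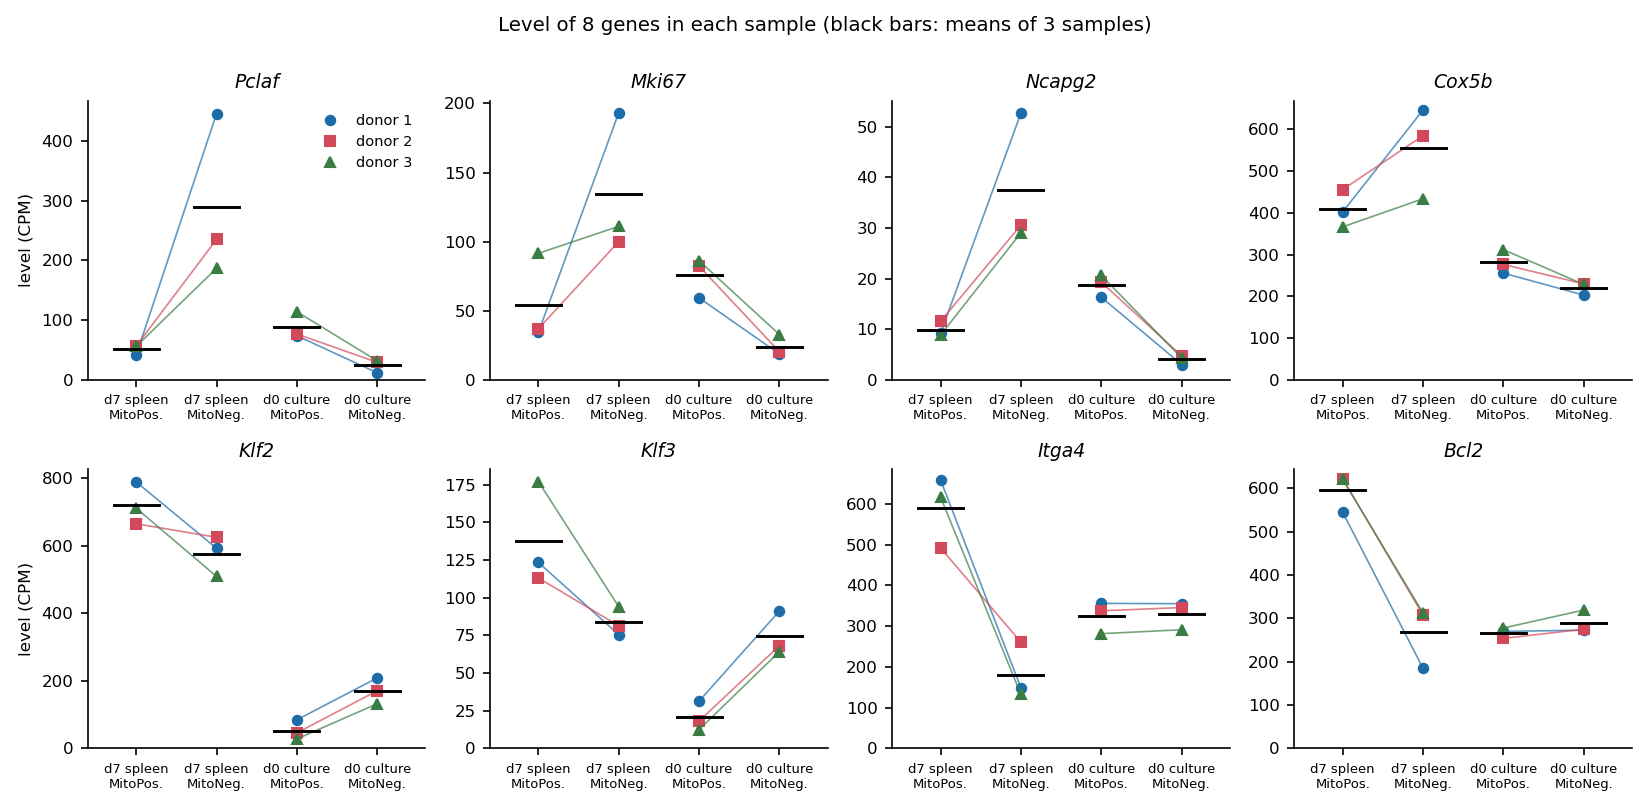
Level (CPM) of 8 genes in each of the 12 samples, with MitoPositive left of MitoNegative at each time and a line joining the arms of a donor. Pclaf, Mki67, Ncapg2 and Cox5b are lower in MitoPositive spleen samples and higher in MitoPositive culture samples, Klf2 and Klf3 differ most in culture, and Itga4 and Bcl2 are near level in culture and higher in MitoPositive spleen samples.

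Effector genes did not move as a group. Of 26 tested, 3 were higher and 4 lower, beside 6.49% and 9.68% of all genes. The lower ones numbered 1 without donor 2, 2 without the spleen or the culture pair of donor 2 and 7 without donor 3. With the replicate block at both days 7 were higher and 6 lower. Ccl5, a chemokine of memory and effector cells, had 11692, 10491 and 10521 CPM in MitoPositive and 2989, 5658 and 2572 CPM in MitoNegative spleen samples, and 368.5, 505.0 and 449.1 CPM in MitoPositive and 495.8, 597.2 and 609.7 CPM in MitoNegative culture. Every MitoPositive spleen sample lay above every MitoNegative one (shift 2.00 ± 0.25, adjusted p = 0.000152). The lectin-like receptor Klre1 was higher in the spleen and lower in culture (shift 2.96 ± 0.25), and Prf1, the pore protein perforin, at 0.79. Tnf (-1.67 ± 0.28) and S100a4 (-1.87 ± 0.35) shifted downward, as did S100a6 (-1.04) and Id2 (-0.94). Without donor 2, Prf1 (adjusted p = 0.19), S100a4 (0.059), S100a6 (0.24) and Id2 (0.20) did not pass. Gzmk, Gzmb, Cx3cr1 and Zeb2 had no called shift, at 1.30, -0.88, 1.16 and 0.66 (adjusted p = 0.155, 0.228, 0.271 and 0.349), and passed under 2, 4, 2 and 1 of the alternatives, although Gzmk, Cx3cr1 and Zeb2 were higher in MitoPositive spleen cells by 1.69, 1.46 and 1.83. Klrg1 and Ccl3 were at or near 0 in every culture sample, so no shift is given for them. In the spleen Klrg1 had 9.5, 9.17 and 53.2 CPM in MitoPositive and 1.87, 6.06 and 5.3 CPM in MitoNegative samples (1.89 ± 0.44, adjusted p = 0.0143). Ccl3 had 3.92, 5.23 and 2.95 CPM in MitoPositive and 11.7, 18.2 and 14.8 CPM in MitoNegative spleen samples (-1.72 ± 0.25, adjusted p = 0.000638).

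Inhibitory receptors split in direction, with 3 of 18 higher and 5 lower, beside 6.49% and 9.68% of all genes. The lower ones numbered 1 without donor 2 or its culture pair and 2 without the spleen pair of donor 1. Entpd1, the ectonucleotidase CD39, had 48.4, 47.4 and 62.0 CPM in MitoPositive and 10.3, 14.7 and 26.5 CPM in MitoNegative spleen samples, and 9.81, 14.6 and 15.9 CPM in MitoPositive and 17.2, 16.7 and 22.4 CPM in MitoNegative culture (shift 2.33 ± 0.27, adjusted p = 7.87e-05). Pdcd1, which encodes PD-1, went the other way. It had 13.0, 12.7 and 14.8 CPM in MitoPositive and 32.0, 46.2 and 22.8 CPM in MitoNegative spleen samples, against 2.18, 4.04 and 3.8 CPM in MitoPositive and 0.676, 2.46 and 1.24 CPM in MitoNegative culture (shift -2.76 ± 0.44, adjusted p = 0.000854). The culture levels of Pdcd1 were low and its culture arms overlapped across donors. Its 14.8 CPM in donor 3 rests on a few UMIs. Havcr2, which encodes TIM-3, shifted by -2.13 ± 0.56 and Lag3 by -1.11 ± 0.26, and without donor 2 neither passed (adjusted p = 0.16 and 0.083). Lilrb4a (2.45) and its near-identical neighbour Lilr4b (2.72) both shifted upward, and their reads may not be separable. Lilrb4a did not pass without donor 3 (adjusted p = 0.12).

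Of 20 cytokine receptor genes, 8 shifted upward and 1 downward, beside 6.49% and 9.68% of all genes. The upward count was 3 without donor 2, the spleen pair of donor 1 or the culture pair of donor 2 or 3. Without donor 1 or donor 3 it was 5. Il2ra, the high-affinity IL-2 receptor chain, had 31.8, 25.9 and 38.4 CPM in MitoPositive and 6.92, 11.5 and 8.3 CPM in MitoNegative spleen samples, and 90.4, 76.1 and 71.0 CPM in MitoPositive and 62.4, 60.5 and 62.8 CPM in MitoNegative culture. MitoPositive samples were the higher ones at both times, by more in the spleen (shift 1.44 ± 0.23, adjusted p = 0.000885). Il4ra (1.14 ± 0.19) and Ifngr1 (0.85 ± 0.14) had level arms in culture and higher MitoPositive levels in the spleen. Il12rb1, a chain of the IL-12 receptor, shifted downward (-1.64 ± 0.34), but not past the threshold without donor 2 (adjusted p = 0.11). Among 17 chemokine receptor and integrin genes, Ccr2 (0.93), Itgax (2.79) and Itga4 (1.75) were higher and Cxcr3 (-0.56) and Ccr4 (-2.04) were lower. The downward count of this list was near the share over all genes. Cxcr3 did not pass without donor 2 (adjusted p = 0.30), and Ccr4 passed only without the spleen pair of donor 3 (adjusted p = 0.043), with 0.057 to 0.20 in the other 8 settings. Of 24 interferon response genes 2 were lower (Ifi27l2a, -0.86, and Ly6a, -0.75), and Ly6a did not pass without donor 2 (adjusted p = 0.14). Of 9 cytokine feedback genes 1 was lower (Bcl2l1, -0.50), a call lost without donor 1 (adjusted p = 0.11). The interferon and feedback counts were both near the 9.68% of all genes that shifted downward. Of 19 immediate early genes edgeR's quasi-likelihood test called none, with 3 at an unadjusted p under 0.05, DESeq2 called 1, Jund, the replicate block at both days called 2, and 1 was called without donor 1, its spleen or its culture pair or the spleen pair of donor 3.

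Among the 12 largest upward shifts, Pde2a, a phosphodiesterase that breaks down cyclic nucleotides, had 33.8, 45.3 and 29.5 CPM in MitoPositive and 8.63, 13.5 and 21.7 CPM in MitoNegative spleen samples, and 14.4, 9.93 and 8.47 CPM in MitoPositive and 47.0, 41.0 and 36.2 CPM in MitoNegative culture. The arms of Pde2a were fully apart at both times, in opposite order (shift 3.64 ± 0.28, adjusted p = 1.63e-05). Ms4a4c, a membrane protein of lymphocytes, had the same pattern at 1.78 ± 0.15, and Art2b, a surface ADP-ribosyltransferase with a near-identical copy, at 3.31 ± 0.28. Gas7 (3.65), Kcnj8 (3.85), Nbea (3.59), Nrg2 (3.11), Fam78b (2.93) and Kcnc1 (3.01) were also among the 12. Nrg2 did not pass in 6 of the 9 settings without a donor or pair, and was at 1.93 without donor 2 (adjusted p = 0.56). Gas7, Kcnj8, Nbea and Fam78b had under 10 CPM in every culture sample, and Kcnc1 did not pass without donor 2 (adjusted p = 0.096).

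RNA of other cells differed between spleen samples. The summed level of 18 myeloid genes was 799, 1568 and 1480 CPM in MitoPositive and 754, 699 and 2566 CPM in MitoNegative spleen samples, and 181 to 209 and 169 to 196 CPM in culture. That of 9 B cell genes was 160, 1809 and 94.5 CPM in MitoPositive and 184, 306 and 2608 CPM in MitoNegative spleen samples, and 135 to 185 and 176 to 235 CPM in culture. High B cell levels thus stood in the MitoPositive sample of donor 2 and the MitoNegative sample of donor 3, and edgeR called no shift in the myeloid, B cell, erythroid or melanoma lists, with 1 myeloid gene at an unadjusted p under 0.05 none called by DESeq2 and 1 myeloid gene called with the replicate block at both days. Without donor 1, donor 2 or any 1 spleen pair, 1 melanoma gene was called. In cells with a Cd3 UMI 2184 genes were called, 1970 of them among the 1993. Of 12 tested genes of gamma delta T and NK cells, 4 were higher, namely Klre1, Tcrg-C1 (2.77 ± 0.71), Tcrg-C2 (1.55 ± 0.41) and Tcrg-C4 (1.26). Trdc was lower (-0.98 ± 0.27). Over all genes 6.49% shifted upward and 9.68% downward. Without the culture pair of donor 2 the 3 Tcrg genes and Trdc did not pass (adjusted p = 0.098 to 0.20), and the upward count was 1 there and without the spleen pair of donor 1, and 2 without donor 1. Tcrg-C1 and Tcrg-C2 are near-identical copies. The list summed to 387, 432 and 603 CPM in MitoPositive and 184, 312 and 300 CPM in MitoNegative spleen samples, and to 124, 106 and 118 CPM in MitoPositive and 77.2, 75.9 and 80.6 CPM in MitoNegative culture. Trbv14, the segment that gave most T cell receptor beta V RNA, made up 79.0%, 66.3% and 67.4% of it in MitoPositive and 96.8%, 90.8% and 85.3% in MitoNegative spleen samples, and 94.3%, 79.9% and 70.6% in MitoPositive and 95.1%, 79.3% and 78.0% in MitoNegative culture. In cells whose beta V UMIs were all from Trbv14, 1957 genes were called, 1481 of them among the 1993. The MitoPositive spleen sample of donor 3 held 18 such cells.

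The division genes were then reduced by taking low-cycle cells, those with at most 2 of 3000 thinned UMIs from the S phase and G2/M lists without Smc4. This selection was added after seeing the data and left 28 to 1179 cells per sample. Of 10998 genes, 730 (6.64%) were called, 301 (2.74%) upward and 429 (3.9%) downward, and 617 were among the 1993. The cycle lists chose these cells, and their medians of -0.15 for S phase, 0.063 for G2/M and 0.032 for histones are no result. Of 12 homing genes 6 were higher, with a median of 0.86, and of 22 stem and memory genes 11 were higher and 1 lower, with a median of 0.91. Of 71 nuclear oxidative phosphorylation genes 24 were lower and none higher, with a median of -0.34. Named genes that kept their call there include Klf2 (1.66), Klf3 (2.49), S1pr1 (0.92), Itga4 (1.25), Bcl2 (0.99), Bach2 (1.24), Satb1 (1.22) and Foxp1 (0.88). Ccl5 (1.31), Entpd1 (1.82), Klre1 (2.81), Pde2a (3.41) and Pdcd1 (-3.40) did too, as did Cox5b (-0.63), Ndufa4 (-0.62) and Gapdh (-0.69). Of the 96 called genes named, 81 could be tested there, 73 of them on no cycle or histone list, and of these 49 passed and 24 did not. Psat1, at -0.30 (adjusted p = 0.69), Idi1, at -0.53 (0.52), and Mdh1, at -0.14 (0.56), were among the 24, with Phgdh, Mthfd2, Cyp51, Fdps, Pmvk, Mdh2 and Idh3a (adjusted p = 0.052 to 0.27). So were Nrg2 (0.42), Nbea (0.11) and Kcnc1 (0.072), and Tomm6, Timm17a, Timm9 and Rps14 (0.092 to 0.35). The others were Ncapg2 (0.79), Prf1 (0.31), Tcrg-C4 (0.14), Ccr2 (0.086), Bcl2l1 (0.071), Itgb7 (0.064) and Il4ra (0.059), each value an adjusted p.

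**Figure D5:**
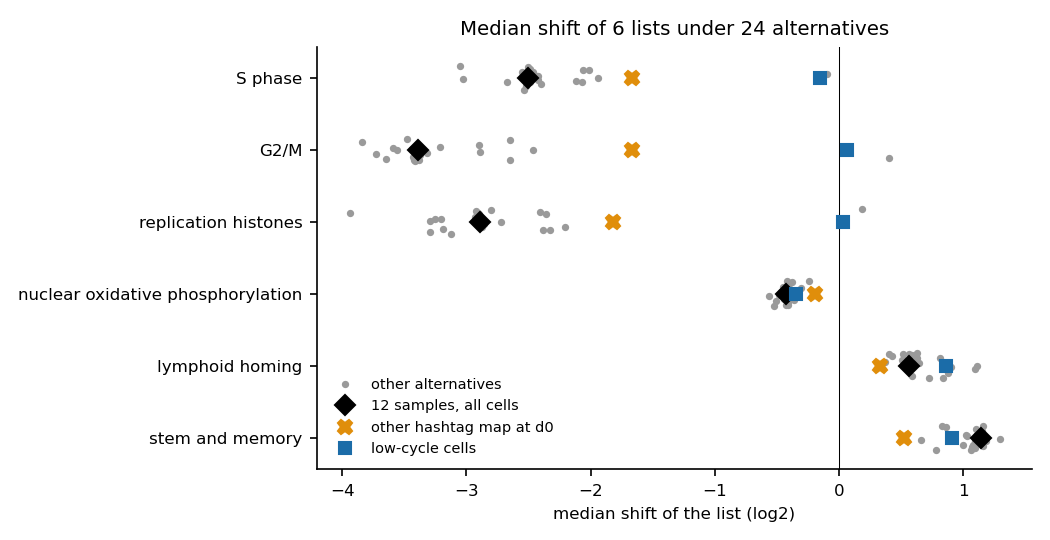
Median shift (log2) of 6 lists with all cells of the 12 samples (black diamonds), in low-cycle cells (blue squares), with the other hashtag map at d0 (orange crosses) and under the other alternatives (grey points). The low-cycle medians are -0.15, 0.063 and 0.032 for S phase, G2/M and histones, and -0.34, 0.86 and 0.91 for nuclear oxidative phosphorylation, lymphoid homing and stem and memory genes.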

How the data were processed

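Single-cell 3′ RNA libraries with hashtags were read as UMI counts that the authors deposited in 4 matrices of 32285 genes and 6 hashtags. Per the submitters' processing notes, Cell Ranger 7.0.0, Seurat 4.0.5 and the mm10 (GRCm38) build were used, and the counts are neither normalised nor split by hashtag. Samples were taken from the deposited hashtag list. Cells were filtered as described in the report; the hashtag ratio of 3 also removed mixed-hashtag doublets, and no doublet caller was run. HTODemux (Seurat 5.3.0) gave the same sample to 92.8% of d0 cells and to 36.1%, 55.5% and 94.4% of d7 cells in donors 1 to 3.

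The replicate was the hashtagged sample, whose UMIs were summed over cells. After filterByExpr and TMM scaling, edgeR 4.0.16 in R 4.3.3 gave the tests (quasi-likelihood, Benjamini-Hochberg adjustment over 12330 genes, threshold 0.05). The 12 samples were fitted with an intercept for d0, 1 for each d7 library, and an arm term at each time, leaving 6 residual degrees of freedom. CPM are TMM-scaled, and errors beside log2 values are standard errors from the F statistic. On simulated counts of 12012 genes the fit called 87% of 100 genes changed 2-fold, 100% of 100 changed 4-fold and 8 unchanged genes. Changed genes had a mean of at least 10 CPM. Apart from the changes, all simulated samples shared the same gene means, with no donor, library or day effect. These rates therefore leave out the differences between donors seen in the real counts. Same-numbered samples come from the same donor mouse per the hashtag list, and their deviations from group means correlated at 0.72, 0.0052 and 0.59 in culture and 0.093, 0.33 and 0.19 in the spleen over 3260 genes. All d0 samples share 1 library and each d7 donor is 1 library, so levels between days were not compared. Nothing in the labels says that the arms of a donor were cultured separately, so p-values measure the spread between these samples. Counting error per gene is set by the sample totals given in the report.

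Named genes were the 12 largest shifts each way among called genes with at least 10 CPM in a group and the fitted sign in 3 of 3 donors, up to 4 called members of each of 27 lists (2 where none was called), the 6 genes of smallest p called at both times with opposite signs, and a set of T cell genes. Other called list members, Cdt1, Smc4 and Hist1h2ac were named after their values were seen. Marker genes of other cell types are given as sums, and a gene that the rule names is not reported here. The comparison and the gene lists were chosen with earlier results of these data known. Promoters are RefSeq's, and genes without one there are named only. Of 36 S phase, 38 G2/M and 18 histone genes, 30, 33 and 16 had a promoter. Low-cycle cells were added after seeing the data. The DESeq2 version was 1.42.0.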

Additional observations from a re-analysis of the deposited data

Results flagged for a closer look

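The difference between the arm differences in the spleen and in culture was itself tested, and 1993 genes passed by edgeR's quasi-likelihood test. The genes named in the report that passed differ between the times by that test and are given here with their shift. No group held 4 or more samples, so single samples could not be tested for standing apart.

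Shifts of S phase genes and their regulators were -5.39 for E2f7, -4.75 for Cdc6, -4.73 for E2f8, -4.47 for Pclaf, -4.40 for Chek1, -4.38 for Mcm10, -4.10 for Clspn, -3.11 for Prim1, -2.16 for Dut and -2.04 for Hells. For mitotic genes they were -4.56 for Pbk, -4.45 for Melk, -4.32 for Ccna2, -4.13 for Ncapg2, -3.89 for Bub1b, -3.42 for Mki67 and -2.22 for Smc2. Among histones they were -4.51 for Hist1h2an, -4.42 for Hist1h2ag, -4.35 for Hist1h2af, -4.34 for Hist1h3c, -2.39 for Hist2h2ac and -1.82 for Hist1h1e.

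In the lists of oxidative phosphorylation and the tricarboxylic acid cycle the shift was -0.88 for Ndufa4, -0.84 for Cox5a, -0.80 for Cox5b, -0.72 for Idh3a, -0.69 for Sdhb, -0.67 for Atp5c1, -0.52 for Mdh2 and -0.44 for Mdh1. It was -0.98 for Pgk1, 0.95 for Pdk1, -0.94 for Gapdh and -0.85 for Eno1 in glycolysis, and 0.50 for Timm9, -0.48 for Tomm6, -0.47 for Timm17a and -0.43 for Tomm7 in mitochondrial import. Ribosomal proteins gave 0.59 for Rps27 and 0.36 for Rps14, stress response genes -1.45 for Psat1, -1.06 for Phgdh, -0.83 for Mthfd2 and -0.65 for Ddit4, and cholesterol synthesis -1.44 for Idi1, -1.28 for Cyp51, -0.86 for Fdps and -0.71 for Pmvk.

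Homing genes had shifts of 2.54 for Klf3, 2.03 for Klf2, 1.75 for Itga4, 1.24 for S1pr1, 0.94 for Ccr7 and -0.38 for Itgb7. Stem and memory genes had 1.48 for Bach2, 1.47 for Satb1, 1.32 for Bcl2 and 1.14 for Foxp1. Effector and inhibitory receptor genes had 2.96 for Klre1, -2.76 for Pdcd1, 2.72 for Lilr4b, 2.45 for Lilrb4a, 2.33 for Entpd1, -2.13 for Havcr2, 2.00 for Ccl5, -1.87 for S100a4, -1.67 for Tnf, -1.11 for Lag3, -1.04 for S100a6, -0.94 for Id2 and 0.79 for Prf1. Receptors for cytokines and chemokines, with integrins, had 2.79 for Itgax, -2.04 for Ccr4, -1.64 for Il12rb1, 1.44 for Il2ra, 1.14 for Il4ra, 0.93 for Ccr2, 0.85 for Ifngr1 and -0.56 for Cxcr3. Gamma delta genes had 2.77 for Tcrg-C1, 1.55 for Tcrg-C2, 1.26 for Tcrg-C4 and -0.98 for Trdc. Feedback and interferon genes had -0.86 for Ifi27l2a, -0.75 for Ly6a and -0.50 for Bcl2l1. Genes outside the lists had 3.85 for Kcnj8, 3.65 for Gas7, 3.64 for Pde2a, 3.59 for Nbea, 3.31 for Art2b, 3.11 for Nrg2, 3.01 for Kcnc1, 2.93 for Fam78b and 1.78 for Ms4a4c.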

How the results depend on the processing

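The count of shifts stayed within 1.5 times of 1993 with DESeq2 or its size factors, no count filter, the replicate block at both days (2358), HTODemux, Cd3 cells, Trbv14 cells and no mitochondrial limit. It was 1010 with no replicate block, 1163 with 18 samples, 32 with the other hashtag map, 1006 with cells thinned to 3000 UMIs, 129 with thinned cells of at most 2 cycle UMIs, 232 with equal sample totals and 730 in low-cycle cells. In the same order the spleen count was 812, 927, 483, 1263, 300, 194 and 546, and the culture count 348, 339, 0, 367, 19, 91 and 378, with 1257 without a count filter. Leaving out donors or pairs gave 652 to 2257 shifts, 322 to 1959 spleen and 11 to 866 culture calls. For these losses the cause was not tested, except that thinning, equal totals and left-out samples hold fewer UMIs or samples. The replicate block at both days kept 1959 of the 1993 calls.

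The median shift under the other map was -1.67 for S phase, -1.67 for G2/M, -1.82 for histones, -0.19 for oxidative phosphorylation, 0.33 for homing and 0.53 for stem and memory genes. In thinned cells of at most 2 cycle UMIs it was -0.10 for S phase, -0.24 for oxidative phosphorylation and 0.90 for homing, and turned to 0.40 for G2/M and 0.18 for histones. In low-cycle cells it was -0.15 for S phase and 0.86 for homing, and turned to 0.063 for G2/M and 0.032 for histones; both selections use cycle genes. With equal totals it was -1.94 for S phase, 0.88 for homing and 0.66 for stem and memory, and in Trbv14 cells -3.94 for histones and 0.72 for homing. Homing gave 0.83 with DESeq2, 0.40 with 18 samples and 0.81 with thinned cells. Without 1 donor or pair S phase gave -3.05 to -2.01 and homing 0.37 to 1.11.

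Of 96 called genes named, 30 stayed called under all 24 alternatives but the other map. Signs turned in low-cycle cells for Smc2 (0.067), Ncapg2 (0.42), Hist1h2ac (0.31), Cdt1 (0.88), Il7r (-0.11) and Ifng (0.0046). They turned under the other map for Jund (0.054), Cd2 (0.0091), Gzmb (0.88), S100a6 (0.044) and Smc4 (-0.22), and with equal totals for Timm17a (0.0062) and Cx3cr1 (-2.14). In Trbv14 cells Gzmk (-0.011), Ifng (0.61) and Trbv14 (0.28) turned, and Ifng did in thinned cells of at most 2 cycle UMIs (1.04). Il7r turned with 18 samples (-0.00057), HTODemux (-0.023) and thinned cells (-0.0054), and Cdt1 with HTODemux (0.18) and thinned cells (0.41). Without 1 donor or pair Il7r ran from -0.16 to 0.18, Ifng from -1.40 to 0.042 and Cdt1 from -0.41 to 0.032.

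The MitoPositive spleen sample of donor 3 limits what can be seen: 1 UMI there is 2.95 CPM. Values under 10 CPM in that sample, such as those of Ncapg2, Cdc6 and Ccl3, rest on a few UMIs at most. Differences in that donor of genes at such levels are therefore uncertain, and what could be detected there was not tested.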
